A study of Mus musculus with 4 samples.

Results

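Mitochondrial ribosomal proteins are the nucleus-encoded protein components of the ribosome that works inside mitochondria. They were taken here as every row whose symbol begins with Mrpl or Mrps followed by a number, which gave 76 of the 23444 symbols measured. The symbol assigns 47 of them to the large subunit (Mrpl) and 29 to the small subunit (Mrps). RNA was profiled in lung cells that the labels call Pdgfra+ fibroblasts, from WT mice of the C57BL6 strain at embryonic days 16.5 and 18.5 (E16.5, E18.5) and postnatal days 7 and 28 (P7, P28). Embryos and mice came from timed pregnant females, no treatment is named, and genotype, strain, tissue and sorted population are shared by all 4 groups. Each age is 1 library, so no difference below has a replicate check, and neither a test nor an error can be given. Where 4 values are given in a row they are in the order of age, E16.5 first and P28 last. The labels used here do not say how many animals went into a library, nor their sex.

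The mitochondrial ribosome translates the few proteins encoded by mitochondrial DNA, which are core subunits of the respiratory chain and of ATP synthase. Its RNAs come from mitochondrial DNA, whereas all its proteins are made in the cytosol and imported. Many of them have a counterpart in the bacterial ribosome, and others are found in mitochondria alone. Nuclear respiratory factor 1 (NRF1), GABP of the ETS family and YY1 are transcription factors known for acting at promoters of nuclear genes for mitochondrial proteins.

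Values were FPKM (fragments counted relative to transcript length and to the fragments of the library). Such values carry no read totals, the depth behind them is unknown, and no counting error can be attached. The library of E18.5 was on another scale. Its FPKM summed to 100231, against 180010 to 220221 in the others, and its median-ratio factor, a size factor over the 7930 symbols at 1 FPKM or more in every library, was 0.581 against 1.08 to 1.38. Each comparison is therefore given both as deposited and after division by these factors ("scaled FPKM"). Differences are of log2(FPKM + 1) and understate the change of transcripts near or below 1 FPKM. Calls of higher or lower need a difference of 1 or more on this scale (2-fold) with 5 FPKM reached in whichever library is higher. Members are set beside the 12561 symbols that reached 1 FPKM in a library.

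Pdgfra itself was at 88.7, 95.9, 113 and 188 FPKM, and all 7 fibroblast markers were above 0 in every library. Markers of other cells moved as well. The 6 leukocyte markers made up 0.717%, 0.0619%, 0.00919% and 2.30% of all FPKM. Lyz2 held nearly all of the share at P28, where the pan-leukocyte marker Ptprc was at 0.0983 FPKM against 15.4 at E16.5. The 6 epithelial markers made up 0.0177%, 0.131%, 0.0223% and 13.4% in the same order, the 6 endothelial markers 0.00994%, 0.0241%, 0.437% and 0.0977%, and the 6 proliferation markers 0.149%, 0.0250%, 0.0984% and 0.00785%. The erythroid marker Hba-a1, an alpha globin, was at 2.24, 264, 14.1 and 0.825 FPKM. Mesothelial markers reached at most 0.0382% and pericyte markers at most 0.0151%. The part of these cells in the values below was not tested, and in bulk RNA fewer cells of a type and less RNA per cell cannot be told apart.

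Transcripts of the mitochondrial ribosome were most abundant at E16.5, and no member had its lowest value there. The median member was at 6.45, 2.22, 5.25 and 3.93 FPKM from E16.5 to P28. On the scaled values the medians were 5.62, 3.82, 3.81 and 3.65 in the same order, so the E16.5 library was the high one on either scale. All 76 members together held 0.401%, 0.291%, 0.327% and 0.237% of all FPKM. The last of these shares comes from the library in which 6 epithelial markers alone held 13.4%.

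Of the 76 members, 46 (60.5%) had their highest deposited FPKM at E16.5, against 27.3% of all 12561 symbols. After scaling the count was 43 (56.6%) against 26.2%. None of the 76 was lowest at E16.5 on either scale, whereas 9.27% of all symbols were as deposited and 23.7% after scaling. After scaling, 17 members were highest at E18.5, 11 at P28 and 5 at P7. The E16.5 library is also the one with the highest proliferation markers and the highest Ptprc, and what those cells contributed was not tested.

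As deposited the medians of both subunits followed the same order of ages. The median large-subunit member was at 6.38, 2.69, 5.11 and 4.33 FPKM and the median small-subunit member at 6.97, 2.16, 5.88 and 3.77. Summed FPKM of the large subunit was 1.98, 2.07, 1.97 and 1.73 times that of the small subunit in the same order. After scaling the medians were 5.56, 4.64, 3.71 and 4.02 for the large subunit and 6.07, 3.73, 4.27 and 3.49 for the small, both highest at E16.5 but lowest at P7 and at P28, respectively. E16.5 held the most members highest in both, 30 of 47 and 16 of 29 as deposited.

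**Figure D1:**
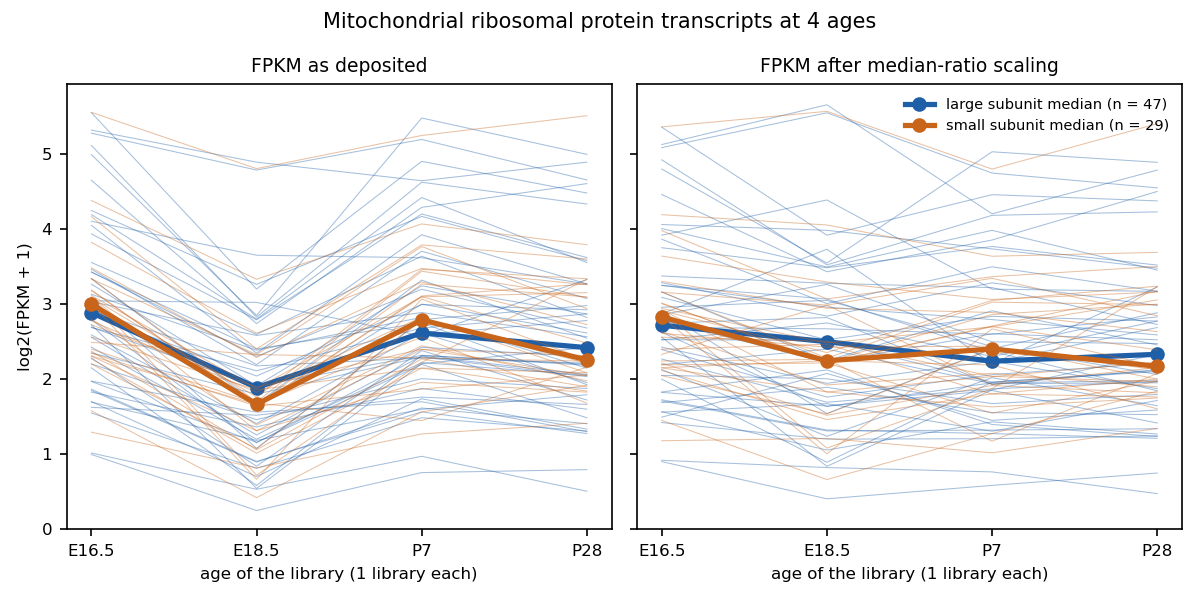
Levels of the 76 members at 4 ages, as deposited (left) and after median-ratio scaling (right), in log2(FPKM + 1); each thin line is 1 gene and each thick line the median of a subunit by symbol, 1 library per age. E16.5 is the highest library for both medians on either scale, at 5.56 (large) and 6.07 (small) scaled FPKM. As deposited both medians are lowest at E18.5, whereas after scaling the large-subunit median is lowest at P7 and the small-subunit median at P28.

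Levels spanned a wider range between members than the medians did between ages. The most abundant was Mrps21, a small-subunit protein with a bacterial counterpart, at 45.8, 26.8, 36.8 and 44.4 FPKM. Mrpl30 followed with 37.6, 26.5, 35.4 and 24.1 FPKM, and Mrpl52, a protein of the large subunit that bacteria lack, with 38.7, 28.5, 23.9 and 28.5. These 3 stayed above 20 FPKM in every library.

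Mrpl4 was at 30.7, 6.18, 43.4 and 30.7 FPKM and was the most abundant member at P7. Its E18.5 value was its lowest but still above that of the median member (2.22 FPKM). Mrpl18, of the central protuberance of the large subunit, was at 45.7, 8.16, 28.8 and 21.2 FPKM, and Mrpl42, found in mitochondria alone, at 33.5, 6.07, 23.5 and 19.1. Both were highest at E16.5 and lowest at E18.5. Mrpl33 was at 24.01, 5.66, 18.5 and 23.2 FPKM and Mrps33 at 19.7, 9.03, 15.7 and 12.8.

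At the other end, Mrpl41 was the 1 member under 1 FPKM in all 4 libraries, at 0.991, 0.187, 0.684 and 0.731 FPKM. No member was listed at 0 in any library, and none had more than 1 entry in the table. The number of members that reached 5 FPKM was 48, 15, 40 and 33 from E16.5 to P28. The order of the members was similar between libraries: Spearman's rho across the 76 ran from 0.731 (E18.5 and P28) to 0.935 (E16.5 and P7). These points share transcript length and sequence between libraries, and genes are not independent replicates.

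Promoter sequence was looked at because NRF1, ETS factors and YY1 are known for binding near the starts of such genes. The stretches of 250 bases before the RefSeq transcript start are shown for 4 members chosen after their values and motif matches were seen: the most abundant small-subunit and large-subunit members, a member of the peptide exit tunnel with 2 kinds of match, and Mrpl23, also of the exit tunnel, which kept its level at E18.5 and has no match to the 3 factors. The sequences are from RefSeq (GRCm38.p6), read 5′ to 3′ on the strand of the gene, with matches to GCGCANGCG (NRF1) or CCGGAAG (ETS), on either strand, in capitals.
Mrps21 chr3:95871515-95871764, minus strand: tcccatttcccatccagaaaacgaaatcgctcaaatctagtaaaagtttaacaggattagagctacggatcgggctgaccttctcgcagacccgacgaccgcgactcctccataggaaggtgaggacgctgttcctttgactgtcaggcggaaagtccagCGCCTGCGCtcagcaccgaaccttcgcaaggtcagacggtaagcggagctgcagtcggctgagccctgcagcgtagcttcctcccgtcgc
Mrpl30 chr1:37890227-37890476, plus strand: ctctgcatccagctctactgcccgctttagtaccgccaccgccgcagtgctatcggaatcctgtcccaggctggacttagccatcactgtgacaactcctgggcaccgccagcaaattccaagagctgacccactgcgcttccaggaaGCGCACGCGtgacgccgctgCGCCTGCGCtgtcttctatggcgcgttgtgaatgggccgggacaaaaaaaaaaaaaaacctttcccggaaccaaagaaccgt
Mrpl22 chr11:58171414-58171663, plus strand: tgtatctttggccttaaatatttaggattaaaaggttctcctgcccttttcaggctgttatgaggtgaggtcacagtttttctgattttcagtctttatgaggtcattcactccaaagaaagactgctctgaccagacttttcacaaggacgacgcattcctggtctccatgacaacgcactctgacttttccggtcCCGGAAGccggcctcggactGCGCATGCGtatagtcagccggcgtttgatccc
Mrpl23 chr7:142532782-142533031, plus strand: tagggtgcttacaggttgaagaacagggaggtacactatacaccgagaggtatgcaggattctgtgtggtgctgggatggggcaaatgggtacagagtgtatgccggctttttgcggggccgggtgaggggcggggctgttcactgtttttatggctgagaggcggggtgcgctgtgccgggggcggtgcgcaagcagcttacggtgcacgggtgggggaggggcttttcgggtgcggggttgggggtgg
Mrps21 has 1 NRF1 match, beginning 90 bases before the start on the opposite strand. It also has an ETS match at position 19 after the start, outside the stretch shown. Mrpl30 has 2, beginning 102 bases before the start on the gene's own strand and 82 bases before it on the other. Mrpl22 has an ETS match 53 bases and an NRF1 match 33 bases before the start. The start of Mitd1, which runs the other way, lies 66 bases from that of Mrpl30, inside the stretch shown. The GENCODE span of Mrpl23 begins at base 142532686, before its stretch, so that stretch lies inside the wider gene model.

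Of the 76 members, 67 had an entry in the RefSeq promoter table, searched from 250 bases before to 50 after each start. The other 9 were Mrpl4, Mrpl13, Mrpl15, Mrpl19, Mrpl38, Mrpl54, Mrps28, Mrps34 and Mrps35. The NRF1 letters GCGCANGCG were in 15 of the 67 (22.4%), against 14.8% of 9278 other symbols at 1 FPKM or more and 7.03% of all 27025 symbols in the table. The ETS letters CCGGAAG were in 24 (35.8%), against 19.5% and 9.93%. The YY1 letters AAGATGGC were in 12 (17.9%), against 5.11% and 3.19%.

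At least 1 of the 3 was in 42 members, 9 held 2 kinds, none held all 3 and 25 held none. Most NRF1 and ETS matches lay within 100 bases before the start (15 of 24 and 17 of 28), whereas 8 of 12 YY1 matches lay after it, at a median position of 16. The GC box letters GGGCGG were in 33 members (49.3%), against 68.7% of the other expressed symbols. CCAAT was in 27 (40.3% against 42.5%) and TATAAA in 5 (7.46% against 9.15%). The motifs were searched on both strands and may overlap, and a match is a description of letters, not a binding site.

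Medians of members with and without a match had no order common to both comparisons with E16.5 for NRF1 and ETS. At P7 against E16.5 the median scaled log2 difference was -0.34 with an NRF1 match and -0.32 without, -0.42 with an ETS match and -0.25 without, and -0.17 with a YY1 match and -0.38 without. At P28 against E16.5 these medians were -0.24 and -0.38 for NRF1, -0.31 and -0.38 for ETS, and -0.14 and -0.38 for YY1.

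Many members start close to a gene on the other strand, and pairs whose starts overlap are counted with pairs that lie back to back. In the GENCODE M21 annotation of GRCm38, the start of a protein-coding gene on the other strand lay within 1000 bases of the start of 32 of the 76 members (42.1%), against 2384 of 21951 protein-coding genes (10.9%). The 21951 include genes that are not expressed in these libraries, and the share among symbols at 1 FPKM or more was not computed. Mrpl46 and Mrps11, on chromosome 7, are such a pair of members, with starts 412 bases apart and exons that overlap. Other neighbours also serve mitochondria: Ndufs6 beside Mrpl36 (29 bases) and Ndufb5 beside Mrpl47 (615 bases), both subunits of respiratory complex I, Sars2, the mitochondrial seryl-tRNA synthetase, beside Mrps12 (172 bases), and Peo1 (Twnk), the mitochondrial DNA helicase, beside Mrpl43 (779 bases). These neighbours were named after the data were seen, and exons of Ndufs6, Ndufb5 and Peo1 overlap those of their member.

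Members and neighbours were set side by side, with Mrpl46 and Mrps11 entering as a neighbour of each other and no count for unrelated pairs. Of 31 neighbours in the table, 19 were on the same side of 0 as their member at E18.5 against E16.5 after scaling, 15 at P7 against E18.5, 14 at P28 against P7, 21 at P7 against E16.5 and 19 at P28 against E16.5. Many of these neighbours, among them Tcp1 beside Mrpl18 and Ndufs6 beside Mrpl36, have exons that overlap those of their member. Reads of such pairs cannot be told apart, and their part in these counts was not tested. Oaz3, beside Mrpl9, was at 0 FPKM at E18.5, P7 and P28. It thus had no side at P7 against E18.5 or at P28 against P7, where it was counted as not matching. Some other neighbours, among them Cyb5rl and Lrrc46, stayed under 1 FPKM in every library. Mrpl49, a large-subunit member, was at 7.41, 1.11, 5.91 and 6.86 FPKM. Its neighbour Fau, which starts 59 bases away and encodes a cytosolic ribosomal protein fused to a ubiquitin-like protein, was at 100.4, 121, 41.7 and 43.9. Mrpl49 was thus lowest where Fau was highest.

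**Figure D2:**
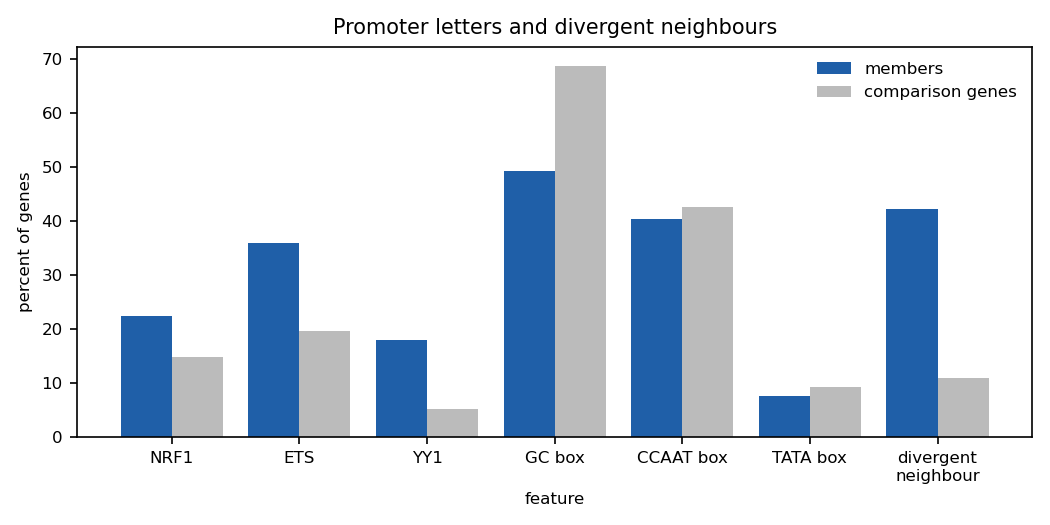
Percent of members (blue) and of comparison genes (grey) that hold each searched motif or a divergent neighbour. A divergent neighbour is a protein-coding gene that starts on the other strand within 1000 bases, overlapping pairs included. The motif bars compare 67 members with 9278 other symbols at 1 FPKM or more. The neighbour bars compare 76 members with all 21951 protein-coding genes, expressed or not, so the grey bars differ in their background. Members are above the comparison genes for the YY1 letters (17.9% against 5.11%) and for divergent neighbours (42.1% against 10.9%), and below them for the GC box (49.3% against 68.7%).

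At E18.5 all 76 members were below their E16.5 level as deposited, as were 86.1% of all symbols. Of the 76, 32 met the 2-fold rule as lower and none as higher, against 22.6% of all symbols lower and 1.11% higher. Among symbols that reached 5 FPKM in the higher library, 32 of 48 members were lower, against 47.4% of 5979 symbols. The median difference was -1.04 for members and -0.71 for all symbols.

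After scaling, 8 members were lower and none higher, against 5.84% of all symbols lower and 4.49% higher. The scaled median was -0.35, against -0.03 for all symbols, and 56 of 76 members (73.7%) were below 0 against 52.5%. The median was -0.27 in the large subunit and -0.46 in the small subunit. The 8 were Mrpl4, Mrpl18, Mrpl33, Mrpl42 and Mrpl49 of the large subunit and Mrps22, Mrps26 and Mrps28 of the small subunit. Mrpl49 is named here outside the naming rule, after its value was seen.

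Mrps28, the mitochondrial counterpart of bacterial ribosomal protein S1, was at 7.46, 0.645, 3.66 and 9.03 FPKM. Its scaled difference at E18.5 was -1.83, the lowest of the 76 members. Mrps26, a small-subunit protein found in mitochondria alone, was at 7.00, 0.582, 7.36 and 3.77 FPKM, also with a scaled difference of -1.83. Both were under 1 FPKM in the E18.5 library and above 3 FPKM in each of the others. Mrps22, found in mitochondria alone and known as a human mitochondrial disease gene, was at 7.51, 1.48, 4.25 and 3.96 FPKM, with a scaled difference of -1.09.

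In the large subunit, the scaled differences of the called members at E18.5 were -1.44 for Mrpl18, -1.40 for Mrpl42, -1.36 for Mrpl49, -1.25 for Mrpl4 and -1.03 for Mrpl33. The exons of Mrpl18 overlap those of Tcp1 on the other strand, and Mrpl42 has a near-identical processed pseudogene, so their reads are uncertain. The same holds for Mrps26, which has a near-identical processed pseudogene and an overlapping gene, for Mrpl49, whose exons overlap those of Syvn1, for Mrpl33, which overlaps a gene on its own strand, and for Mrpl47, which overlaps Actl6a and Ndufb5. Mrpl4, Mrps22 and Mrps28 have neither an overlap nor a copy. Mrpl47 of the exit tunnel was at 5.59, 0.455, 3.60 and 4.33 FPKM and had a scaled difference of -1.72, but its highest scaled value did not reach 5.

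Against this, 13 large-subunit and 7 small-subunit members were higher at E18.5 after scaling, none of them by 2-fold. Mrpl23 was at 7.22, 7.10, 4.95 and 8.998 FPKM, a difference of -0.02 as deposited and 0.86 after scaling. Mrps16, a small-subunit protein with a bacterial counterpart, was at 4.60, 4.01, 3.85 and 3.71 FPKM, with a scaled difference of 0.66. Mrpl17, at 2.08, 1.86, 2.38 and 2.16 FPKM, had a scaled difference of 0.58 and Mrpl52 one of 0.53. Mrpl34, at 16.1, 11.5, 11.2 and 8.60 FPKM, had one of 0.47, and Mrpl14, the large-subunit protein onto which the assembly factor Malsu1 docks, one of 0.40 with 7.15, 4.97, 6.38 and 4.90 FPKM. Such members kept most of their deposited level in the library where all symbols had a median difference of -0.71. Mrpl23 and Mrps16 have near-identical processed pseudogenes.

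**Figure D3:**
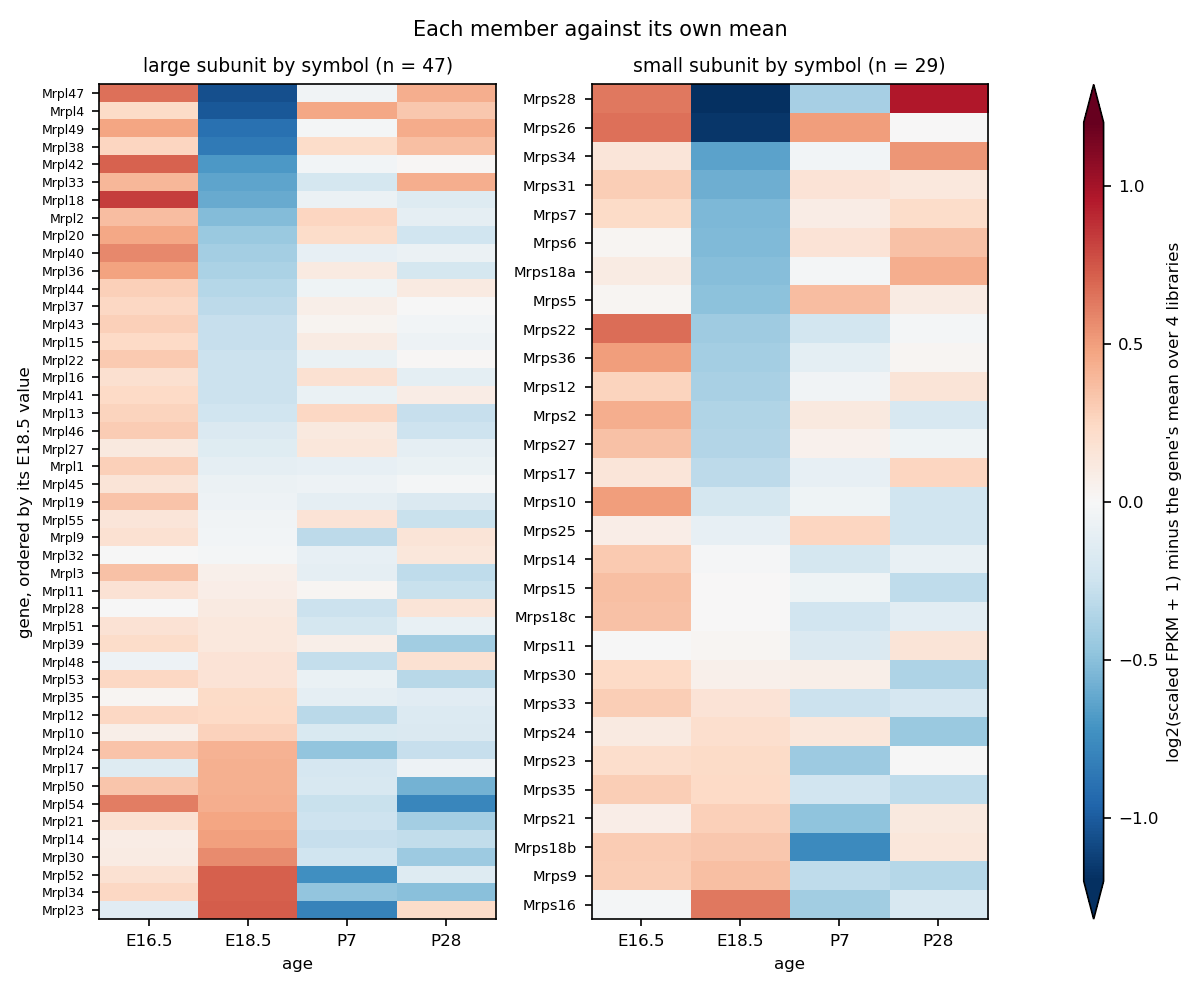
Each member's log2(scaled FPKM + 1) minus its own mean over the 4 libraries, by subunit and ordered by the E18.5 value; red is above and blue below the gene's mean, and the colours saturate at the ends of the scale. The E16.5 column is red in most rows of both panels, and the E18.5 column runs from blue (Mrps26 and Mrps28 among the small-subunit rows) to red (Mrpl23 among the large-subunit rows).

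From E18.5 to P7, 26 of 76 members were higher as deposited and none lower, against 33.3% of all symbols higher and 1.52% lower. Where the higher library was at 5 FPKM or above, 26 of 41 members were higher, against 63.3%. The median difference was 1.01 for members and 0.92 for all symbols. This comparison shares the E18.5 library with the one before.

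After scaling, 2 members were higher and 4 lower, against 7.2% and 5.88% of all symbols, with medians of 0.08 and 0.04. Mrps26 (1.66) and Mrpl4 (1.48) were the 2 higher. Mrpl23 (-1.53), Mrpl52 (-1.45), Mrpl34 (-1.19) and Mrps16 (-1.06) were lower. The median scaled difference was 0.01 in the large and 0.21 in the small subunit. Mrps31, a protein of the small-subunit head, was at 9.07, 2.23, 9.80 and 7.49 FPKM, and its difference was 1.74 as deposited and 0.74 after scaling.

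From P7 to P28, as deposited, 1 member, Mrps28, was higher, with a difference of 1.11, and none was lower, against 5.95% of all symbols higher and 9.57% lower. The median was -0.28 for members and -0.23 for all symbols. After scaling 2 were higher, Mrps28 (1.36) and Mrpl23 (1.02), and none lower, against 7.42% and 5.21%, with medians of 0.01 and 0.03. The middle 50% of members lay between -0.25 and 0.20 after scaling, and that of all symbols between -0.34 and 0.46.

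Several large-subunit members were lower at P28 than at P7 without reaching 2-fold. Mrpl13 was at 17.2, 5.94, 20.3 and 10.7 FPKM and Mrpl39 at 10.7, 5.03, 11.4 and 6.05. Mrps25 of the small subunit was at 9.07, 4.004, 12.6 and 6.65 FPKM. The 3 had scaled differences of -0.53, -0.49 and -0.50 between P28 and P7. Exons of Mrpl13 overlap those of Mtbp on the other strand, which was at 6.07 FPKM at P7 and 1.17 at P28. Those of Mrps25 overlap Nr2c2, so reads of both members are uncertain, whereas Mrpl39 has neither an overlap nor a copy. Mrps24, which shares exon sequence with Urgcp, was at 3.94, 2.16, 4.88 and 2.19 FPKM and had the lowest scaled difference of the 76, -0.58. At P28 epithelial markers held 13.4% of FPKM and proliferation markers were at their lowest, and their part in these values was not tested.

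Between P7 and E16.5, 69 of 76 members (90.8%) were below 0 after scaling, against 52.4% of all symbols. The scaled median was -0.33 against -0.03, and it was -0.33 in the large and -0.31 in the small subunit. The middle 50% of members lay between -0.56 and -0.15. The 1 member called lower was Mrps28 (-1.04) and none was higher, against 4.72% of all symbols lower and 6.02% higher. As deposited 53 of 76 members were below 0 (all symbols 37.4%), the median was -0.12 against 0.16, and none was called in either direction, against 8.84% higher and 3.75% lower.

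The 7 members above 0 at P7 included Mrps5, the small-subunit protein at the entry of the messenger RNA channel, at 3.58, 1.10, 5.88 and 3.62 FPKM. Its scaled difference of 0.35 was the highest. Mrpl4 (0.23), Mrps25 (0.18) and Mrps6 (0.14) followed, Mrps6 being a platform protein with a bacterial counterpart, at 7.47, 2.38, 9.98 and 9.07 FPKM. At the low end stood Mrps18b (-1.07) and, among members of the large subunit, Mrpl52 (-0.92). Mrpl27, at 14.2, 5.90, 17.3 and 11.3 FPKM, and Mrpl55, at 2.90, 1.23, 3.57 and 1.79, were barely above 0 (0.02 and 0.03). Mrps18b did not reach 5 scaled FPKM and was not called. Mrps5 has a near-identical processed pseudogene, and exons of Mrps25 and Mrps6 overlap those of Nr2c2 and Slc5a3, so their reads are uncertain. Mrps18b and Mrpl27 have both an overlapping gene and such a copy, whereas Mrpl4, Mrpl52 and Mrpl55 have neither.

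Between P28 and E16.5, 60 of 76 members (78.9%) were below 0 after scaling, against 48.0% of all symbols, with medians of -0.33 and 0.03. The subunit medians were -0.34 (large) and -0.31 (small). Mrpl54, a large-subunit protein found in mitochondria alone, was the 1 member called, at 9.71, 4.27, 5.71 and 2.79 FPKM with a scaled difference of -1.40. The background was 7.94% lower and 10.4% higher. As deposited Mrpl54 (-1.50) and Mrpl18 (-1.07) were lower and none was higher, against 9.51% and 10.1%. Mrpl50, also found in mitochondria alone, was next at 7.73, 4.21, 6.05 and 3.41 FPKM, with a deposited difference of -0.98.

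Members above 0 at P28 against E16.5 were led by Mrps34, at 1.98, 0.336, 1.95 and 2.77 FPKM, with a scaled difference of 0.39. Mrpl23 (0.36), Mrps18a (0.34), Mrps6 (0.33) and Mrps28 (0.32) followed, none of them 2-fold. Mrpl48, at 5.43, 3.31, 5.39 and 6.28 FPKM, had a scaled difference of 0.25 and Mrpl28, at 2.23, 1.27, 2.02 and 2.46, one of 0.15. Reads of Mrps34, Mrps6 and Mrpl48 are uncertain because their exons overlap those of other genes. Mrpl23 and Mrpl48 have near-identical processed pseudogenes, whereas Mrps18a, Mrps28 and Mrpl28 have neither an overlap nor a copy. The comparisons of P7 and of P28 with E16.5 share the E16.5 library, the one with the highest leukocyte marker Ptprc and the highest proliferation markers.

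**Figure D4:**
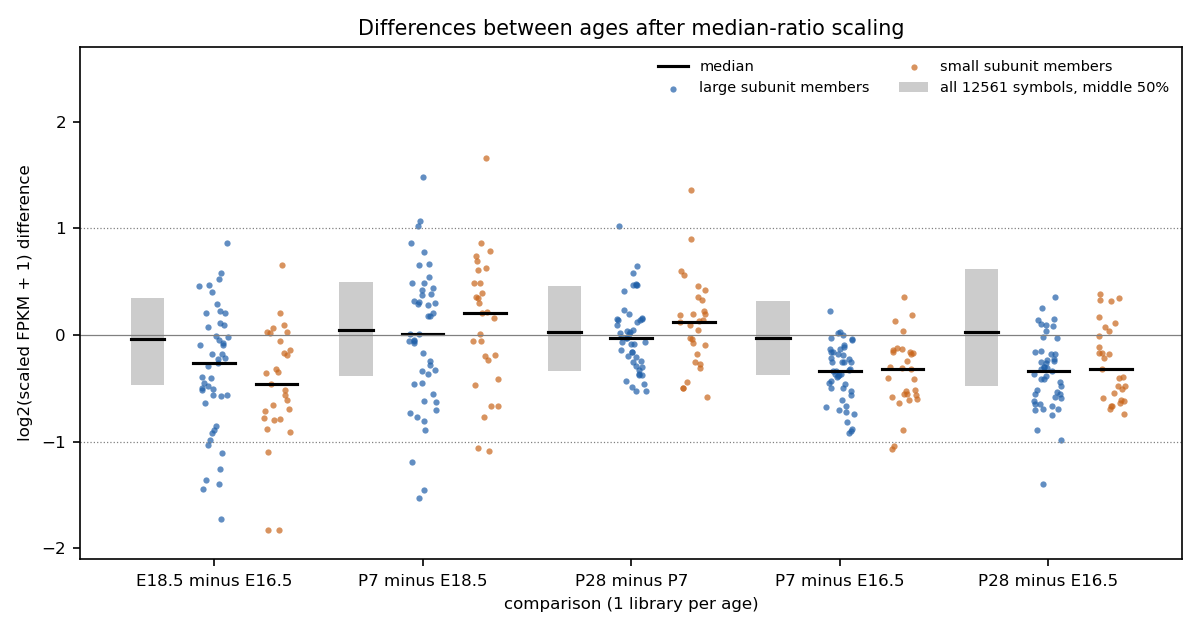
Difference in log2(scaled FPKM + 1) between ages for the 5 comparisons; dots are members (large and small subunit apart) with a line at each median, and the grey bar and black line are the middle 50% and the median of all 12561 symbols, with dotted lines at a 2-fold difference. In both comparisons with E16.5 on the right most members lie below 0 (69 and 60 of 76), whereas all symbols are centred near 0.

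By position on the ribosome, members of 1 site did not always move together. The stalk that recruits translation factors holds Mrpl10, Mrpl11 and Mrpl12, with Mrpl53 nearby. Mrpl10 was at 4.08, 2.48, 3.89 and 3.08 FPKM, Mrpl11 at 1.02, 0.444, 0.957 and 0.418, and Mrpl12, which in human cells also binds the mitochondrial RNA polymerase, at 5.44, 2.73, 3.97 and 3.58. Mrpl53 was the most abundant of the 4 at 17.9, 8.57, 16.9 and 10.9 FPKM. All 4 were below 0 after scaling at P7 and at P28 against E16.5, with medians of -0.29 and -0.43. None was called in these comparisons, but only 1 of the 4 reached the 5 scaled FPKM that a call needs.

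Around the exit of the peptide tunnel, where new proteins meet the inner membrane, Mrpl22 was at 4.36, 1.29, 3.65 and 3.13 FPKM and Mrpl24 at 6.52, 3.51, 3.85 and 3.62. Mrpl44, an RNase III-like protein, was at 4.87, 1.38, 4.35 and 3.91, and Mrpl45, which tethers the ribosome to the membrane, at 1.92, 0.751, 1.79 and 1.47. With Mrpl17, Mrpl23 and Mrpl47, the 7 tunnel members had scaled medians of -0.22 at E18.5 and -0.40 at P7 against E16.5. At E18.5 they ran from -1.72 (Mrpl47) to 0.86 (Mrpl23), the lowest and the highest of the large subunit.

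At the decoding site, Mrps12, counterpart of the bacterial protein known for streptomycin resistance, was at 3.81, 1.01, 3.42 and 3.23 FPKM. Its scaled differences from E16.5 were -0.31 at P7 and -0.11 at P28, whereas those of Mrps5 were 0.35 and 0.08. The 4 members near the peptidyl transferase centre, Mrpl2, Mrpl3, Mrpl16 and Mrpl27, had scaled medians of -0.37, -0.06 and -0.39 at the later ages against E16.5.

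Medians by ancestry were similar at P7 and P28. The 46 members with a bacterial counterpart had scaled medians of -0.33, -0.35 and -0.34 at E18.5, P7 and P28, each against E16.5, and the 29 found in mitochondria alone had -0.48, -0.32 and -0.32. The scaled medians of all symbols were -0.03, -0.03 and 0.03.

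For some members the symbol and the structure of the ribosome differ. Mrps18a and Mrps30 sit in the large subunit, and Mrps36 is now known as a component of the 2-oxoglutarate dehydrogenase complex. Mrps18a was at 6.97, 2.11, 7.60 and 8.60 FPKM and Mrps30 at 5.84, 2.53, 6.07 and 3.23. Mrps36, which has 4 near-identical processed pseudogenes, was at 16.9, 4.27, 12.8 and 11.1. Assigning subunits by structure (49 large, 26 small) left each subunit's direction in the comparisons with E16.5 as it was.

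The 3 Mrps18 paralogs, of which Mrps18b and Mrps18c sit in the small subunit, followed different courses as deposited. Mrps18c was at 13.1, 5.09, 10.1 and 8.54 FPKM and Mrps18b at 4.26, 2.20, 1.72 and 3.46. Mrps18a was highest at P28, whereas the other members of the trio were highest at E16.5, and Mrps18b was lowest at P7. After scaling Mrps18b was slightly higher at E18.5 (3.79 scaled FPKM) than at E16.5 (3.72).

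Ribosomal proteins of the cytosol followed another course, and their values depend on the scale. Their 80 members at 1 FPKM or more had scaled medians of 0.30 at E18.5 against E16.5, -1.50 at P7 against E18.5 and -0.06 at P28 against P7. At P7 against E16.5 the median was -1.18 with 64 of 80 lower and 1 higher, and at P28 it was -1.26 with 61 lower and 1 higher. The shares of all symbols were 4.72% and 7.94% lower and 6.02% and 10.4% higher. As deposited, the median of the cytosolic proteins was -0.68 at E18.5 against E16.5 (members -1.04) and -0.27 at P7 against E18.5 (members 1.01). In the latter comparison 8 of 80 were lower, against 1.52% of all symbols. Summed FPKM of cytosolic over mitochondrial ribosomal proteins was 33.8, 49.7, 21.05 and 19.1 from E16.5 to P28. Rpl10, the most abundant, was at 1562, 724, 1088 and 914 FPKM, while Rpl34, at 7.07, 97.5, 30.9 and 38.8, was the 1 called higher at P7 and P28 against E16.5. Many genes of this family have processed pseudogenes of near-identical sequence, and their reads are uncertain.

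The nuclear-encoded subunits of oxidative phosphorylation, which work beside the products of the mitochondrial ribosome, were also highest at E16.5. Their 79 members had scaled medians of -0.14, -0.57 and -0.34 at the later ages against E16.5, with 7, 6 and 3 lower and 1, 0 and 1 higher. The shares of all symbols were 5.84%, 4.72% and 7.94% lower and 4.49%, 6.02% and 10.4% higher. At P7, 91.1% of the 79 were below 0, close to the 90.8% of mitochondrial ribosomal proteins. Atp5b, the catalytic beta subunit of ATP synthase, was at 770, 150.2, 721 and 517 FPKM.

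Other parts of the mitochondrial translation apparatus were measured as well. The 7 proteins of the ribosome under other symbols (Dap3, Ptcd3, Chchd1, Aurkaip1, Gadd45gip1, Ict1 and Mrp63) were all below 0 at P7 against E16.5 after scaling, with a median of -0.28, and had medians of 0.09 at E18.5 and -0.26 at P28. Chchd1, at 11.8, 1.41, 9.57 and 6.10 FPKM, was lower at E18.5 (-1.72). The 16 translation factors had medians of -0.24, -0.21 and -0.31 at E18.5, P7 and P28. Slirp, which with Lrpprc stabilises mitochondrial messenger RNAs, was at 38.0, 12.1, 26.1 and 15.1 FPKM and was the 1 of the 16 called at P28 (-1.19).

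The 22 assembly factors at 1 FPKM or more (of 26 in the table) had medians of -0.15, -0.03 and -0.02 at E18.5, P7 and P28 against E16.5. Malsu1, which keeps the large subunit from joining too early, was called higher at E18.5 (1.39), with 13.0, 18.1, 17.7 and 14.4 FPKM. Mterfd2 (1.32) and Ngrn (1.16) were called higher at P28. The 14 mitochondrial aminoacyl-tRNA synthetases had medians of -0.08, -0.23 and -0.03. Lars2, the leucyl enzyme, was at 368, 2568, 231 and 797 FPKM, far above the others, and Yars2, the tyrosyl enzyme, at 11.2, 0.945, 9.35 and 5.37. Lars2 was called higher (3.78) and Yars2 lower (-2.04) at E18.5, and Lars2 again higher at P28. The highest value of any other synthetase was 13.3 FPKM (Iars2 at P7). Copies and overlaps were searched for members only, so whether the reads counted as Lars2 came from that gene was not tested.

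Genes for mitochondrial DNA upkeep and transcription (10 at 1 FPKM or more) had medians of -0.41, -0.28 and -0.18 against E16.5. None was called, but only 2 of the 10 reached the 5 scaled FPKM that a call needs in each comparison. Import and chaperone genes (18) had medians of -0.65, -0.41 and -0.53, with 3, 2 and 3 lower and none higher. The shares of all symbols were 5.84%, 4.72% and 7.94% lower and 4.49%, 6.02% and 10.4% higher. Hspd1, the mitochondrial chaperonin, was at 104, 23.96, 45.4 and 46.4 FPKM. Among regulators of mitochondrial biogenesis (7), with medians of 0.33, -0.33 and -0.47, Nrf1 was at 5.08, 2.60, 4.59 and 3.10 FPKM, Gabpa at 17.0, 8.60, 22.4 and 11.0 and Yy1 at 12.2, 5.22, 14.9 and 8.86. Myc, at 25.2, 42.0, 19.2 and 2.24 FPKM, was called higher at E18.5 (1.68) and lower at P28 (-2.90). The 16 mitosis genes had medians of -2.44, -0.76 and -3.11, with 16, 1 and 16 lower.

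**Figure D5:**
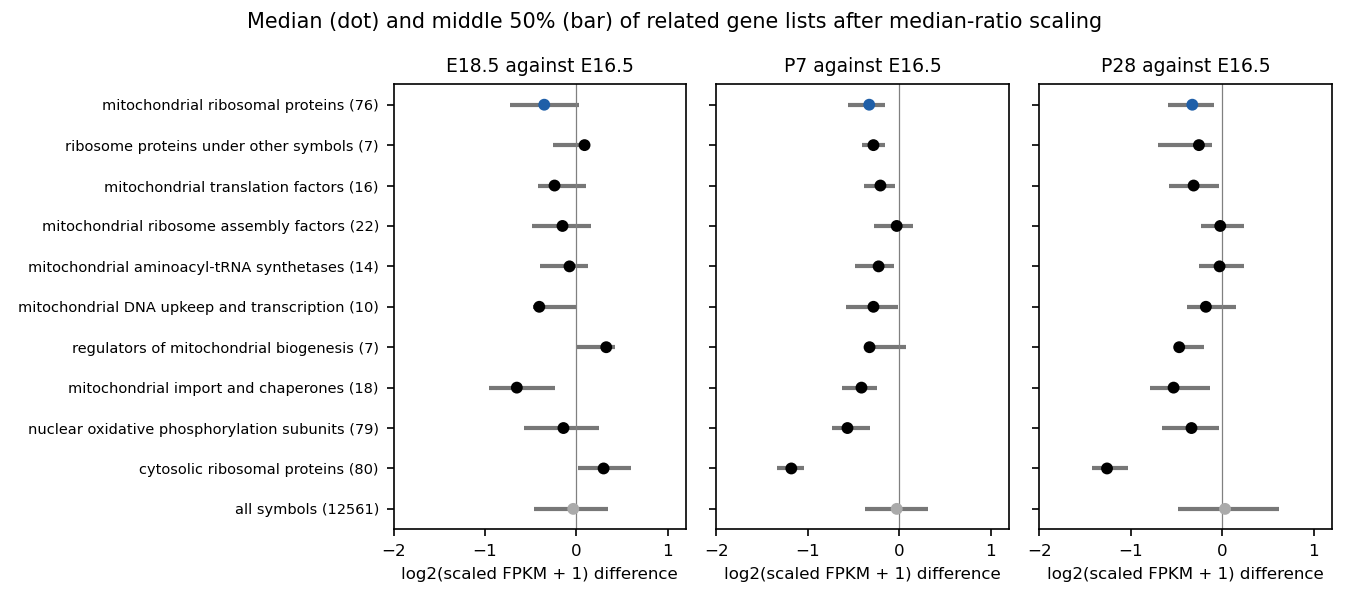
Median (dot) and middle 50% (bar) of the log2(scaled FPKM + 1) difference for mitochondrial ribosomal proteins, related gene lists and all symbols, at E18.5, P7 and P28 each against E16.5, with the number of genes in brackets. At P7 against E16.5 the members lie at -0.33, the nuclear oxidative phosphorylation subunits at -0.57 and the cytosolic ribosomal proteins at -1.18, all below the median of all symbols (-0.03).

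Reads of many members cannot be assigned with certainty. The labels name no strand-specific step, so reads of genes with overlapping exons on opposite strands cannot be told apart. Exons of 32 members overlap those of another gene in GENCODE M21 (27 on the other strand), and 17 have a copy elsewhere in the annotation with at least 95% identity over 200 or more coding bases, all of them processed pseudogenes. The 33 members with neither had scaled medians of -0.36, -0.25 and -0.37 at the later ages against E16.5, against -0.35, -0.33 and -0.33 for all 76. All 76 were placed in that annotation, on 17 chromosomes, most on chromosome 11 (10 members). The most abundant, Mrps21, spans bases 95862634 to 95871519 of chromosome 3 on the minus strand, Mrpl4 bases 21002738 to 21008839 of chromosome 9 on the plus strand and Mrps28 bases 8802146 to 8923918 of chromosome 3 on the minus strand.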

How the data were processed

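RNA-seq of 4 libraries, 1 per age, was used. Per the labels' protocols, RNA came from the QIAamp Circulating Nucleic Acid Kit, was copied with the Verso kit and was made into libraries with Nextera XT for paired-end reads. TopHat, TopHat2 2.0.9, GRCm38 and mm10 appear in the submitters' processing notes. Which program computed FPKM is not given in the sources. The authors deposited FPKM, already scaled by length and library, for 23931 entries.

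Entries sharing a symbol were summed (258 symbols). Differences are of log2(FPKM + 1), on the deposited values and on median-ratio scaled ones; a call needs a difference of 1 and 5 FPKM in the higher library. With 1 library per age nothing was tested. The counting was tested on simulated data with large changes planted in abundant symbols only. Recovery of smaller changes, or of changes at the lower levels of most members, was not covered. Members and gene lists (other ribosomal proteins of the organelle, translation and assembly factors, aminoacyl-tRNA synthetases, DNA upkeep, biogenesis regulators, import, mitosis, cytosolic ribosomal proteins, oxidative phosphorylation, and cell type markers) were chosen with earlier results of these data known.

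Members were named by a rule: the 8 with the highest mean FPKM, the 4 largest differences each way per comparison at 5 FPKM or more, members under 1 FPKM throughout, the 3 furthest against most of their subunit, those whose subunit differs from their symbol, and those of the stalk, exit tunnel and decoding site; of each list, the most abundant gene and the 2 with the largest difference. Genes printed outside it (the peptidyl transferase group, divergent neighbours, Nrf1, Gabpa, Yy1, Malsu1, the lists' full membership where spelled out, and single members marked so) were chosen after their values were seen.

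Positions are from GENCODE M21 (GRCm38), promoters from RefSeq (GRCm38.p6), and copies from BLAST+ 2.17.0; protein sequences were not used here. A marker result withheld for evaluation is not reported here. Scripts ran under Python 3.11.15 with pandas 2.3.3, numpy 2.4.6, matplotlib 3.10.9 and scipy 1.17.1.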

Additional observations from a re-analysis of the deposited data

How the results depend on the processing

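The alternatives were another pseudocount (0.1 or 5), no minimum or 20 FPKM in the higher library, median-ratio or upper-quartile scaling, symbols with several entries left out, ribosome proteins under other symbols added, subunits by structure and, chosen after seeing the data, members with copies or overlaps left out. Under them 98 values stayed close to the main one and 27 moved. Of the 98, 15 came from leaving out symbols with several entries, which removed no member, so these could not move. Medians with no minimum could not move either, because the main median uses no minimum. No paired analysis was possible because each age has 1 library, and for the same reason no replicate could be left out. At E18.5 against E16.5, the 32 members lower became 10 with a pseudocount of 5, 4 with a minimum of 20 FPKM, 8 with median-ratio and 9 with upper-quartile scaling, and the median of -1.04 became -1.91 among the few members at 20 FPKM or more, -0.35 and -0.33. At P7 against E18.5, the 26 higher became 10 with a pseudocount of 5, 40 with no minimum, 4 with a minimum of 20 FPKM and 2 with either scaling, the 0 lower became 4 with either scaling, and the median of 1.01 became 1.62 with a minimum of 20 FPKM, 0.085 with median-ratio scaling and 0.010 with upper-quartile scaling. At P28 against P7, the 1 higher became 0 with a pseudocount of 5 or a minimum of 20 FPKM and 2 with median-ratio scaling, the 0 lower became 1 with a pseudocount of 0.1, and the median went from -0.28 to 0.01 with median-ratio scaling. At P7 against E16.5, the 0 lower became 1 with a pseudocount of 0.1 or median-ratio scaling and 2 with upper-quartile scaling. At P28 against E16.5, the 2 lower became 0 with a pseudocount of 5 and 1 with a minimum of 20 FPKM or median-ratio scaling. The cause was not tested beyond what each alternative changes by its construction (fewer members counted, another scale). Read totals are unknown, which limits what can be said of members near or below 1 FPKM.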

Other observations

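Transcript length was set beside the differences. Members were divided into equal parts by median transcript length in GENCODE M21: 25 of 405 to 783 bases, 25 of 803 to 1398 bases and 26 of 1411 to 6073 bases. Their median scaled differences at P7 against E16.5 were -0.40, -0.25 and -0.26, beside -0.17, -0.11 and 0.01 for all symbols in the same length ranges. At P28 against E16.5 they were -0.38, -0.40 and -0.28, beside -0.06, 0.02 and 0.05, and at E18.5 against E16.5 they were -0.18, -0.48 and -0.30, beside -0.07, -0.09 and -0.02. Members were thus below the symbols of their own length range in all 3 ranges of these comparisons.

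The mitosis gene Ncapd2, a condensin subunit that starts 100 bases from Mrpl51 on the other strand, was at 16.4, 1.39, 11.7 and 1.29 FPKM from E16.5 to P28. Mrpl51 was at 3.59, 1.74, 3.01 and 2.66 FPKM in the same libraries, so that the neighbours ran different courses at P28. Both were chosen after their values were seen.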
